A study of Homo sapiens with 5 samples.

Results

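The genes described here encode proteins that build ribosomes in the nucleolus. The list held 44 symbols, named for their part in ribosome production, and 43 of them matched a row among the 51055 Ensembl gene IDs of the count table, each through its current symbol. The remaining gene, BOP1, a partner of PES1 and WDR12 in large subunit assembly, is not analysed here. The list was chosen with earlier results of these data known. All 43 passed the filter on low counts, and their counts ranged from 441 (UTP15) to 68091 (NCL) per library.

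The cells were HL60, an established human leukaemia cell line arrested at the promyelocyte stage of granulocyte development. There were 3 groups: UNT, untransduced cells (n = 1 library); SCR, cells carrying a control lentivector (n = 2); and ZIP, cells carrying a miRZip lentivector whose hairpin yields an antisense RNA to the microRNA miR-378a-3p (n = 2). The labels describe the SCR vector as scramble in one place and as empty in another. Both vectors carry GFP, were spun onto the cells with polybrene at 8 µg/mL and a multiplicity of infection of 20, and the cells were selected in puromycin at 2 µg/mL from day 3 to day 8. No label gives polybrene or puromycin to the UNT cells, so vector, transduction and selection cannot be told apart in comparisons with UNT. No label ties the libraries of a group to separate cultures, and the p-values rest on a spread between libraries that may be technical only.

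Ribosome production begins when RNA polymerase I copies the ribosomal DNA into a long precursor. Guide RNAs in box C/D and box H/ACA particles direct the methylation and pseudouridylation of that precursor, and the small subunit processome folds and cuts it. The 40S and 60S precursors then mature separately and leave the nucleus. The transcription factor MYC, which binds the E-box CACGTG, is known to drive many of these genes, and HL60 cells are known for an amplified MYC locus.

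Library totals were 24406580 to 30925067 counts, and the 43 genes held 0.936% of the counts in UNT, 0.921% and 0.935% in SCR, and 1.08% and 1.08% in ZIP. The locus of the targeted microRNA, MIR378A, had 0 counts in 4 libraries and 2 in ZIP 2, so these counts do not check the knockdown. Promyelocyte markers (7 genes, MPO and ELANE among them) summed to 24830 CPM in UNT and 12120 in each SCR library. In ZIP they summed to 23080 and 22430 CPM, and of the 7 genes 5 were called higher and 1 lower than in SCR. CPM, the level used throughout, is a gene's share of the scaled library total. Of 10 monocyte and macrophage markers 9 were in the table, none was at 0 throughout, and 8 were lower in ZIP than in SCR. They summed to 30.2 CPM in UNT, 228 and 232 in SCR, and 82.5 and 84.3 in ZIP. The 8 mature neutrophil markers summed to 202 CPM in UNT, 307 to 310.2 in SCR and 177 to 179 in ZIP. Of the 6 tested in ZIP against SCR, 5 were called lower and 1 higher. Of 8 erythroid markers 5 were at 0 in every library, HBB among them, and the list summed to 1.46 to 1.96 CPM. The sums were 1.94 to 4.63 CPM for 5 B cell markers (MS4A1 at 0), 0.869 to 2.92 CPM for 8 epithelial and fibroblast markers (KRT19 at 0), and 300.3 to 342 CPM for 7 T and NK cell markers (none at 0). The myeloid marker sums moved with the groups, and their part in the results below was not tested. In bulk RNA, fewer cells of a type and less RNA per cell cannot be told apart.

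The promoters of these genes often held the E-box CACGTG. How far the choice of genes bears on its share was not tested. RefSeq promoter windows (GRCh38.p14, from 250 bases before the start to 50 after it) were given for 35 of the 44 genes, in 41 windows. The E-box CACGTG, which reads the same on both strands, was in a window of 18 of the 35 genes (51.4%). It was in 12.8% of 9683 protein-coding genes tested that have a window, in 8.78% of all 27305 genes with a window, and in 23.4% of 107 other ribosome biogenesis genes. A copy began within 40 bases of the start in 17 genes (48.6%), against 4.28% of the protein-coding genes tested and 14.95% of the other ribosome biogenesis genes. The stretches shown run from 45 bases before the start through the first 20 bases from the start on, 5′ to 3′ on the gene's strand, with the E-box in capitals. They were picked to show the E-box beside the start in genes of different steps of ribosome assembly.
UTP20 (chr12:101280060-101280124, plus strand): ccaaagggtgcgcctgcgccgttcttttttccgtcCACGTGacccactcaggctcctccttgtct
UTP4 (chr16:69132604-69132668, plus strand): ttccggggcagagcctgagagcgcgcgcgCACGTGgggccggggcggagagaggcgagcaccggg
RRP9 (chr3:51941885-51941949, minus strand): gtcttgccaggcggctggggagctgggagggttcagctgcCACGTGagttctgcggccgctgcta
FBL (chr19:39846360-39846424, minus strand): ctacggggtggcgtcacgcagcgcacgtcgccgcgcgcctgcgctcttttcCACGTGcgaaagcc
DDX21 (chr10:68956602-68956666, plus strand): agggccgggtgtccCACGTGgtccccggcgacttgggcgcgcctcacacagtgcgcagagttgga
PNO1 (chr2:68157843-68157907, plus strand): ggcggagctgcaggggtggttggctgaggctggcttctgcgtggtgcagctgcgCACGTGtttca
PES1 (chr22:30591891-30591955, minus strand): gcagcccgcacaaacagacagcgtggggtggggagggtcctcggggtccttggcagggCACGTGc

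In UTP20 and UTP4 of the small subunit processome the box began 10 and 16 bases before the start, and in RRP9 of the box C/D particle 5 bases before it. In FBL, PNO1 and PES1 it lay in the first transcribed bases. The same stretch is given for 3 genes with no E-box anywhere in their windows, chosen because NCL and NPM1 are the most abundant and POLR1A changed most against UNT.
NCL (chr2:231464465-231464529, minus strand): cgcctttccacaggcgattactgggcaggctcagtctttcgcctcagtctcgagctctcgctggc
NPM1 (chr5:171387804-171387868, plus strand): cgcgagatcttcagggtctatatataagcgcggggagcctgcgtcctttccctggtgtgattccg
POLR1A (chr2:86105867-86105931, minus strand): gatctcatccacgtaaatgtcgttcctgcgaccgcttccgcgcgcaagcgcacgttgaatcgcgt

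**Figure D1:**
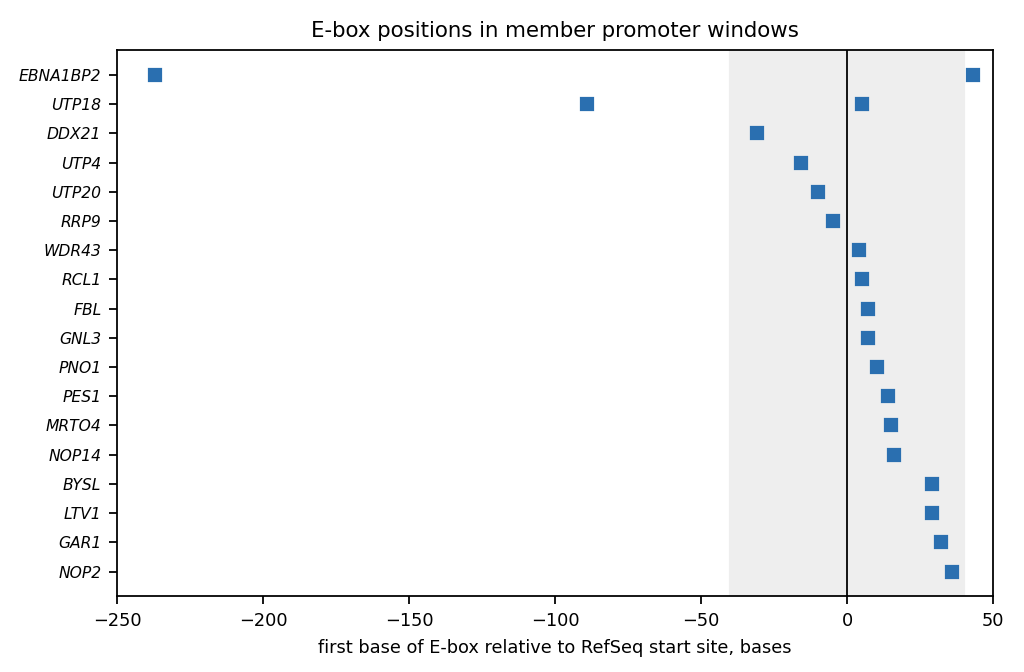
First base of each E-box relative to the RefSeq start site (horizontal axis, bases) for the 18 genes with an E-box in a promoter window, 1 row per gene. The shaded band covers 40 bases on either side of the start and holds 17 of the 20 boxes; the others belong to EBNA1BP2 and UTP18.

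Among the other motifs searched, on both strands, none was in as many of the genes. The ETS-type motif CCGGAAG was in 14 of the 35 genes, against 23.0% of the protein-coding genes tested and 42.1% of the other ribosome biogenesis genes. The NRF1-type palindrome was in 4 genes (11.4%, against 2.74%), and a YY1-type motif and a palindrome of CG steps were in 1 gene each. In ZIP against SCR the median log2 fold change was 0.40 for the 18 genes with an E-box and 0.44 for the 17 without. In SCR against UNT the medians were -0.39 and -0.17, and in ZIP against UNT -0.0078 and 0.14. A match is a match of letters, and no binding was measured. MYC mRNA stood at 2035 CPM in UNT, 926 and 934 in SCR, and 1224 and 1215 in ZIP. Against SCR, MYC was higher in ZIP by 0.39 ± 0.02 (SE) on the log2 scale (adjusted p = 3.2e-13, edgeR). Against UNT, MYC was lower in both, at -1.13 ± 0.02 in SCR and -0.74 ± 0.02 in ZIP (adjusted p = 3e-22 and 1.6e-18, edgeR). The 43 genes did not share the lower level in ZIP against UNT as a set. Their median there was 0.11, with 23 called higher and 12 lower.

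The microRNA that the ZIP vector targets is shown with its seed, bases 2 to 8, in capitals. Below it stand seed matches (AGTCCAG, in capitals) in the 3′ untranslated regions of POLR1A and RRP1B. The sequence is the reference on the gene's strand, as GENCODE 29 gives it. These are examples from genes that changed by a large step between groups. NOP2, which rose by 0.75 on the log2 scale in ZIP against SCR, also holds a match that is not shown.
hsa-miR-378a-3p (GRCh38.p14 chr5:149732867-149732888, plus strand): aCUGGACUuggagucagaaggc
POLR1A, first site: gctgtcagAGTCCAGactgctct
POLR1A, second site: gaatcaggAGTCCAGccatcccc
RRP1B: gacttggaAGTCCAGaaaggaaa

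A seed match was in the longest annotated 3′ untranslated region of 6 of the 43 genes (13.95%), namely POLR1A, RRP1B, NOP2, UTP18, WDR12 and BYSL. The share among 12114 protein-coding genes tested was 12.99%, with a median region of 1326 bases against 800 for the genes described here. In ZIP against SCR 4 of the 6 rose (POLR1A, RRP1B, NOP2 and UTP18), and WDR12 and BYSL fell. Of all 43 genes 39 (90.7%) rose and 3 fell, WDR12 and BYSL among the 3. The part of the seed matches in these changes was not tested.

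Levels per kilobase of annotated exon, as means over the 5 libraries, ran from 359.7 CPM per kb for NPM1, a nucleolar chaperone, down to 3.14 for UTP15. NCL (nucleolin) followed at 293 CPM per kb, then FBL at 194, DDX21 at 124 and NOLC1 at 123. Neighbours in this order mostly overlapped: of 42 neighbouring pairs, 2 had ranges over the 5 libraries that stayed apart, NOLC1 above NOP58 and RCL1 above UTP15. The catalytic subunits of RNA polymerase I were low on this scale, with 18.1 CPM per kb for POLR1B and 11.1 for POLR1A.

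**Figure D2:**
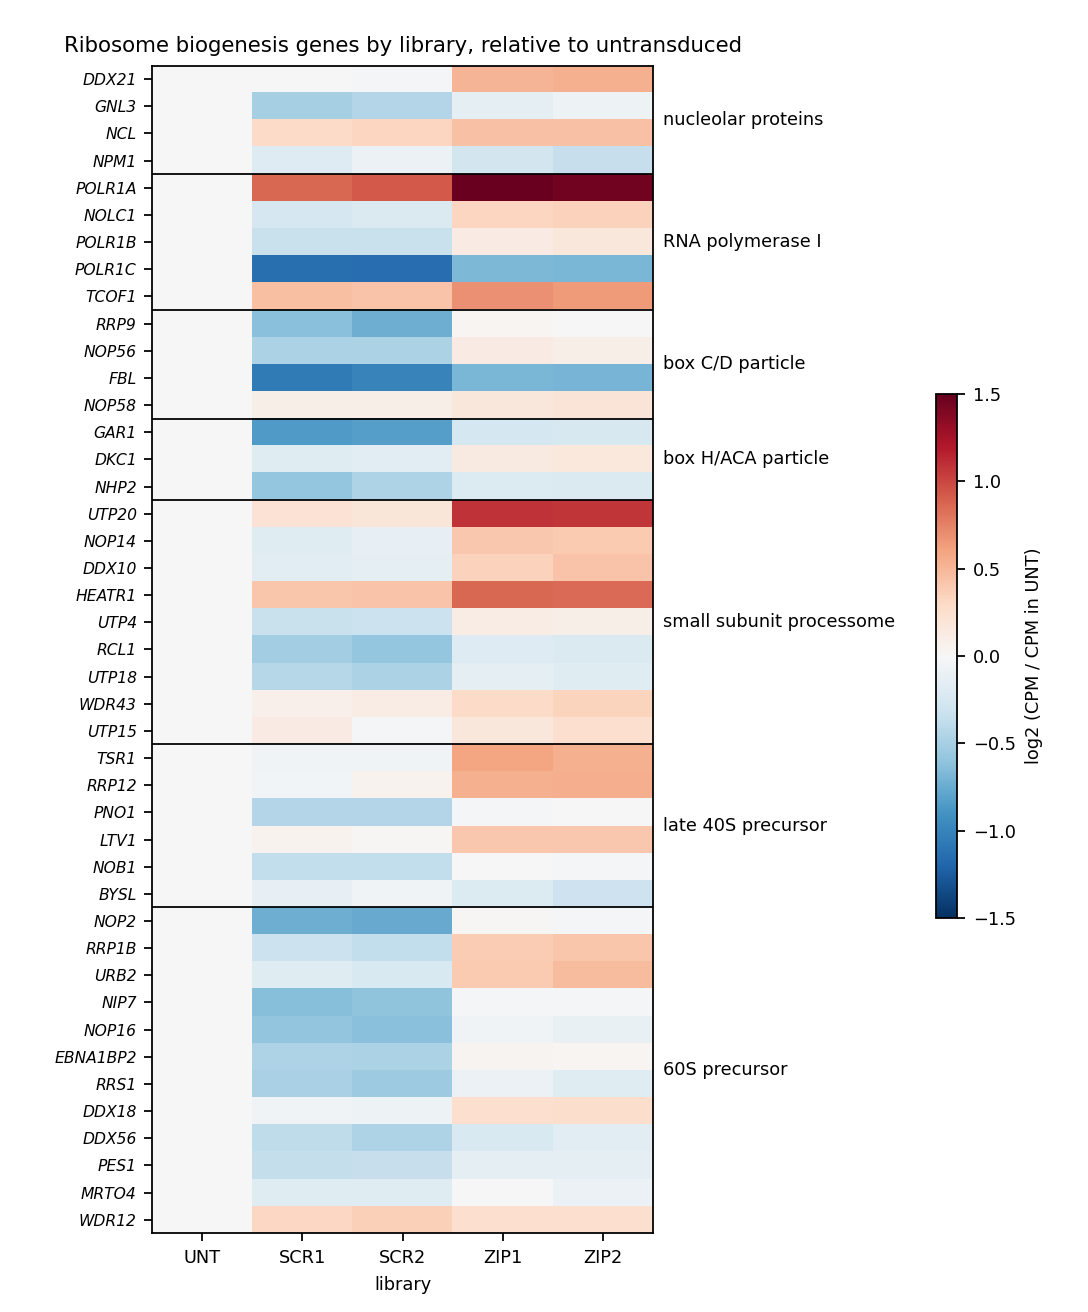
Log2 ratio of each gene's CPM to its CPM in the UNT library (colour, blue below and red above) for the 43 genes (rows, by role, ordered within a role by the change in ZIP against SCR) in the 5 libraries (columns). POLR1A, UTP20 and HEATR1 are the deepest red in ZIP and POLR1C and FBL the deepest blue in SCR, while NOP2, RRP9, NIP7 and NOB1 are blue in SCR and near white in ZIP.

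The comparison of ZIP with SCR asks what differed between cells with the antisense vector and cells with the control vector. Ribosome biogenesis genes were mostly higher in ZIP: of the 43, 39 (90.7%) rose, 3 (6.98%) fell and UTP15 was not called (edgeR quasi-likelihood test, Benjamini-Hochberg adjusted p under 0.05 over 14643 genes tested). Over all genes tested 32.2% were higher and 33.2% lower. How far the choice of the list, made with earlier results of these data known, bears on its shares was not tested. Among the 7329 genes with a mean CPM at or above that of UTP15, the lowest of the 43, 45.5% were higher and 32.8% lower. The changes were moderate, with a median log2 fold change of 0.42, against -0.0018 over all genes tested, and a range from -0.16 (BYSL) to 0.88 (UTP20). A rise of at least 1.5-fold was called in 7 genes (16.3%), namely UTP20, NOP2, RRP1B, RRP9, URB2, TSR1 and NIP7, against 8.95% of all genes tested. A fall of that size was called in 0 of the 43, against 16.6% of all genes tested. Both ZIP libraries lay above both SCR libraries in 40 genes and below them in 3. Over all genes tested these shares were 40.1% and 40.9%.

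Of 4 abundant nucleolar proteins 3 rose and NPM1 fell. NCL, which binds RNA and chromatin in the nucleolus, stood at 1642 CPM in UNT, 2009 and 2050 in SCR, and 2225 and 2224 in ZIP. The 3 groups stepped upward without overlap. The log2 fold change in ZIP against SCR was 0.13 ± 0.02 (SE, adjusted p = 2.6e-07, edgeR), and 0.07 with plain library totals. NPM1 stood at 1555 CPM in UNT, 1356 and 1459 in SCR, and 1289 and 1225 in ZIP. The groups stepped downward, and the gap between SCR and ZIP was smaller than the distance between the SCR libraries. The log2 fold change was -0.16 ± 0.03 (adjusted p = 2.9e-05, edgeR). The RNA helicase DDX21, which acts at ribosomal DNA and in precursor processing, stood at 530.4 and 529 CPM in SCR and 757 and 772 in ZIP. GNL3 (nucleostemin), a nucleolar GTPase, rose by a log2 fold change of 0.35 ± 0.03.

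All 5 genes of RNA polymerase I and its partners rose in ZIP against SCR, with a median log2 fold change of 0.49. POLR1A, the largest subunit, stood at 73.5 CPM in UNT, 133 and 139 in SCR, and 205 and 199.8 in ZIP. The groups did not overlap, with UNT lowest and ZIP highest, and the log2 fold change in ZIP against SCR was 0.58 ± 0.03 (adjusted p = 1.1e-12, edgeR). NOLC1, a nucleolar phosphoprotein that accompanies guide RNA particles, rose by 0.57 ± 0.02 on the log2 scale. The second largest subunit, POLR1B, rose by 0.49 ± 0.03, and TCOF1 (treacle), which links polymerase I transcription to processing, by 0.23 ± 0.03. POLR1C, a subunit shared by RNA polymerases I and III, stood at 66.1 CPM in UNT, 30.2 and 29.9 in SCR, and 41.3 and 41.2 in ZIP. ZIP lay above SCR, by 0.46 ± 0.05 (adjusted p = 8.5e-08, edgeR), and both lay well below UNT.

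All 4 box C/D and all 3 box H/ACA genes rose in ZIP against SCR. RRP9, which binds the U3 guide RNA, stood at 76.6 CPM in UNT, 49.7 and 46.1 in SCR, and 78.1 and 76.4 in ZIP. The ZIP libraries lay on either side of the UNT library and the SCR libraries far below it. The log2 fold change in ZIP against SCR was 0.69 ± 0.04 (adjusted p = 7.2e-12, edgeR). FBL, the methyltransferase of box C/D particles, stood at 654 CPM in UNT, 314 and 326 in SCR, and 407 and 404 in ZIP. It rose by 0.34 ± 0.03 (adjusted p = 6.3e-10, edgeR), and all 4 transduced libraries stayed below UNT. The core proteins NOP56 and NOP58 rose by 0.58 ± 0.03 and 0.09 ± 0.03, and the call for NOP58 was lost with plain library totals. DKC1, the pseudouridine synthase of box H/ACA particles, stood at 278 CPM in UNT, 246 and 247 in SCR, and 304 and 309 in ZIP. SCR lay below and ZIP above UNT, with a log2 fold change of 0.32 ± 0.03 in ZIP against SCR (adjusted p = 1.8e-09, edgeR). GAR1, its particle partner, stood at 77.6 CPM in UNT, 43.1 and 43.7 in SCR, and 64.5 and 65.5 in ZIP. The order was SCR, ZIP, UNT without overlap, and the change in ZIP against SCR was 0.58 ± 0.04. NHP2, another core protein of the particle, rose by 0.31 ± 0.04.

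Of 9 small subunit processome genes 8 rose, and the largest rise among the 43 genes was in this group. UTP20, a large scaffold protein, stood at 70.9 CPM in UNT, 82.4 and 80.2 in SCR, and 150.0 and 149 in ZIP. The SCR libraries lay near UNT and the ZIP libraries far above both. UTP20 was 1.84-fold higher in ZIP than in SCR, a log2 fold change of 0.88 ± 0.03 (adjusted p = 7.2e-16, edgeR). HEATR1, which also promotes polymerase I transcription, stood at 131 CPM in UNT, 174 and 176 in SCR, and 238 and 235 in ZIP, again in steps without overlap. Its log2 fold change in ZIP against SCR was 0.44 ± 0.03 (adjusted p = 2.4e-11, edgeR). NOP14, the helicase DDX10, UTP4, RCL1, UTP18 and WDR43 rose by 0.21 (WDR43) to 0.55 (NOP14). UTP15 stood at 20.1 and 18.2 CPM in SCR and 20.7 and 22.0 in ZIP, close together at the lowest level of the list (log2 fold change 0.15 ± 0.07, adjusted p = 0.060, edgeR).

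Of 6 genes of late 40S maturation 5 rose and BYSL fell. TSR1, a GTPase-like factor on the late 40S precursor, stood at 59.5 CPM in UNT, 57.4 and 57.3 in SCR, and 89.95 and 86.03 in ZIP. UNT and SCR lay close together below ZIP, and the log2 fold change in ZIP against SCR was 0.62 ± 0.04 (adjusted p = 6.5e-12, edgeR). RRP12 (an export factor), PNO1, LTV1 and NOB1, the nuclease that makes the last cut of 18S ribosomal RNA, rose by 0.36 (NOB1) to 0.53 (RRP12). BYSL (bystin), which binds the 40S precursor, stood at 47.9 CPM in UNT, 44.2 and 46.1 in SCR, and 41.6 and 38.7 in ZIP. The distance between the ZIP libraries was larger than the gap from ZIP to SCR. The log2 fold change was -0.16 ± 0.05 (adjusted p = 0.0072, edgeR). The call was lost with DESeq2 (adjusted p = 0.12), without SCR 2 (0.062, edgeR) and without ZIP 2 (0.097, edgeR), where the value was -0.11.

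Of 12 genes of 60S assembly 11 rose and WDR12 fell. NOP2, a methyltransferase of 28S ribosomal RNA, stood at 142 CPM in UNT, 85.2 and 84.2 in SCR, and 143 and 140.3 in ZIP. The ZIP libraries lay on either side of UNT, and SCR lay far below both. The log2 fold change in ZIP against SCR was 0.75 ± 0.03 (adjusted p = 1.1e-14, edgeR). RRP1B, a nucleolar protein of early 60S particles, stood at 162 CPM in UNT, 129.8 and 125 in SCR, and 210.4 and 217 in ZIP. UNT lay between the others, and the change in ZIP against SCR was 0.74 ± 0.03 (adjusted p = 1.4e-14, edgeR). URB2 stood at 50.2 CPM in UNT, 44.3 and 42.8 in SCR, and 66.1 and 69.5 in ZIP. It showed the same order, with a log2 fold change of 0.64 ± 0.04 (adjusted p = 4.3e-11, edgeR). NIP7, NOP16, EBNA1BP2, RRS1, the helicases DDX18 and DDX56, PES1 and MRTO4 rose by 0.15 (MRTO4) to 0.60 (NIP7). WDR12, which forms a complex with PES1, stood at 101 CPM in UNT, 125 and 129 in SCR, and 119.8 and 120.0 in ZIP. At -0.08 ± 0.03 on the log2 scale (adjusted p = 0.019, edgeR), this was the smallest change called. The call was lost with DESeq2 (adjusted p = 0.23), without SCR 2 (0.25, edgeR), without ZIP 1 (0.070, edgeR) and without ZIP 2 (0.088, edgeR), and with plain library totals the value was -0.14.

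**Figure D3:**
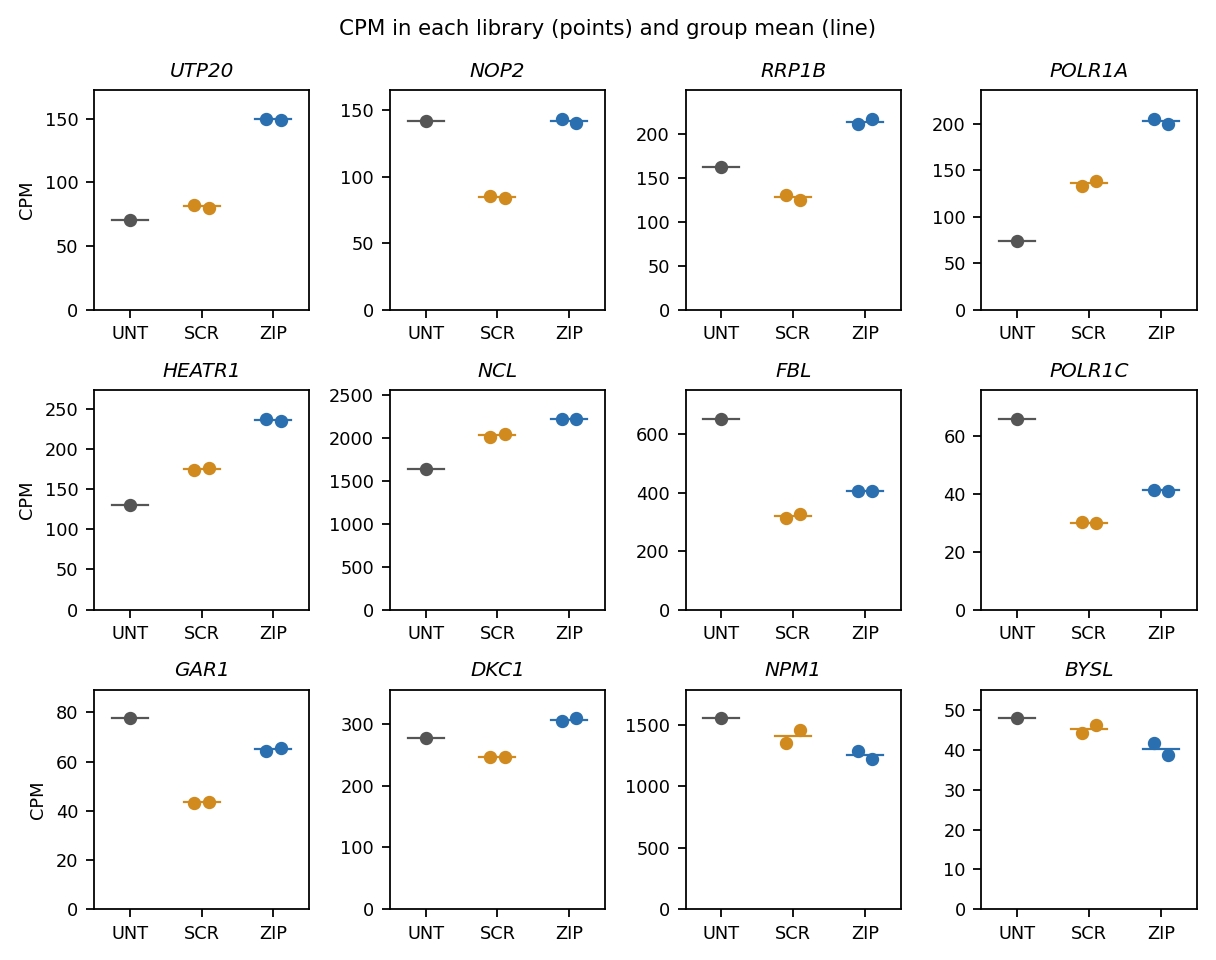
CPM (vertical axes, from 0) of 12 genes in each library (points) with the group mean (line); UNT has 1 library, SCR and ZIP have 2 each. NOP2 is level in UNT and ZIP and lower in SCR; UTP20, POLR1A, HEATR1 and NCL step up from UNT through SCR to ZIP; NPM1 and BYSL step down.

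Other ribosome biogenesis genes (121 listed, 118 in the table) were also more often higher than lower in ZIP against SCR. Of these, 79 (66.9%) rose, 19 (16.1%) fell and 20 were not called, with a median log2 fold change of 0.27. Guide RNA particle genes (7 of 8 higher, 1 lower), small subunit processome genes (27 of 37 higher, 2 lower) and 60S genes (33 of 45 higher, 7 lower) were mostly higher. Other RNA polymerase I genes (5 of 12 higher, 4 lower) and the RNA exosome (6 of 12 higher, 4 lower) were divided, and of 4 other 40S genes 1 was higher and 1 lower, with a median of -0.07. NUFIP1, an assembly factor of box C/D particles, rose by 0.87 ± 0.06 on the log2 scale, SHQ1, a chaperone of DKC1, by 0.82 ± 0.04, and URB1, a 60S factor, by 0.82 ± 0.03. NSA2, a factor of the 60S precursor, fell by 0.57 ± 0.04, TAF1A of the polymerase I selectivity factor by 0.56 ± 0.11 and RIOK3, a kinase on the 40S precursor, by 0.31 ± 0.03.

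The comparison of SCR with UNT asks how cells with the control vector differed from untransduced cells. Most of the genes were lower in SCR: of the 43, 28 (65.1%) fell, 8 (18.6%) rose and 7 were not called (edgeR quasi-likelihood test over 15832 genes tested, with the single UNT library assumed to vary like the others). Over all genes tested 32.2% were lower and 32.7% higher, and among the 7329 genes at or above the level of UTP15 44.9% were lower and 35.8% higher. The median log2 fold change was -0.23, against 0.02 over all genes tested. With plain library totals, which moved the median over all genes to 0.13, 22 of the 43 were lower and 11 higher (33.3% of the calls higher). Over all genes 4121 were then lower and 6157 higher (59.9% of the calls higher, from 50.4%). A fall of at least 1.5-fold was called in 7 genes and a rise in 1, against 13.4% and 20.2% of all genes tested. SCR lay below the UNT value in both libraries in 32 genes and above it in 9, against 45.7% and 46.6% of all genes tested.

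Falls in SCR were called at every step of assembly, in shares that differed between steps. For late 40S maturation the share was near that over all genes tested. POLR1C fell by 1.14 ± 0.06 on the log2 scale (adjusted p = 2.4e-14, edgeR), to 0.454 of its UNT level. FBL fell by 1.03 ± 0.03 (adjusted p = 2.1e-18, edgeR) and GAR1 by 0.84 ± 0.05 (adjusted p = 3.9e-13, edgeR). NOP2 fell by 0.75 ± 0.04 (adjusted p = 3.2e-14, edgeR) and RRP9 by 0.68 ± 0.05 (adjusted p = 3.6e-11, edgeR). All 3 box H/ACA genes fell, as did 10 of 12 genes of 60S assembly, 5 of 9 of the small subunit processome, 3 of 4 of box C/D particles, 3 of 5 of RNA polymerase I, 2 of 6 of late 40S maturation and 2 of 4 nucleolar proteins. DKC1 fell by 0.17 ± 0.03 and NPM1 by 0.14 ± 0.03. The call for NPM1 was lost with library totals (adjusted p = 0.32, edgeR) and with DESeq2 (0.13), and its value was -0.09 without SCR 1. The call was also lost for DKC1 with library totals (0.094, edgeR), at -0.06.

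The rises in SCR were led by long genes. POLR1A rose by 0.89 ± 0.04 on the log2 scale (adjusted p = 1.7e-14, edgeR), in the direction opposite to its partner POLR1C. TCOF1 stood at 158 CPM in UNT, 215 and 212 in SCR, and 254 and 246 in ZIP, and rose in SCR by 0.44 ± 0.04 (adjusted p = 4.2e-10, edgeR). HEATR1 rose by 0.42 ± 0.04 (adjusted p = 7.4e-10, edgeR), WDR12 by 0.34 ± 0.04 (adjusted p = 7.5e-08, edgeR) and NCL by 0.31 ± 0.02 (adjusted p = 1.2e-12, edgeR). UTP20, WDR43 and NOP58 rose by 0.20 (0.31 with library totals), 0.10 and 0.09, and the calls for WDR43 and NOP58 were lost with DESeq2, that for WDR43 also without SCR 2. The 118 other ribosome biogenesis genes had a median log2 fold change of -0.23 in SCR against UNT, against 0.02 over all genes tested. The 4 other 40S genes among them went the other way, with a median of 0.21.

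ZIP against UNT shares the UNT library with SCR against UNT and the ZIP libraries with ZIP against SCR, so its values are given beside theirs and not as further support. Of the 43 genes 23 (53.5%) were higher in ZIP than in UNT, 12 (27.9%) lower and 8 not called, against 28.5% higher and 29.7% lower over all genes tested, and 37.5% and 38.3% among those at or above the level of UTP15. A change of at least 1.5-fold was called upward in 4 genes and downward in 2, against 13.8% and 11.5% of all genes tested. ZIP lay above UNT in both libraries in 24 genes and below in 15, against 44.7% and 45.9%. The median log2 fold change was 0.11, against 0.0015. POLR1A was 2.76-fold higher in ZIP than in UNT, a log2 fold change of 1.46 ± 0.04 (adjusted p = 3.1e-18, edgeR). UTP20 was higher by 1.08 ± 0.04 (adjusted p = 1.9e-16, edgeR), HEATR1 by 0.85 ± 0.04, TCOF1 by 0.66 ± 0.04 and TSR1 by 0.57 ± 0.05. FBL was lower by a log2 fold change of -0.69 ± 0.03 (adjusted p = 6.9e-15, edgeR), POLR1C by -0.68 ± 0.05, NPM1 by -0.31 ± 0.03, GAR1 by -0.26 ± 0.05 and BYSL by -0.25 ± 0.06. DESeq2 lost 10 of the 35 calls (GNL3, POLR1B, NHP2, UTP4, UTP15, UTP18, RCL1, BYSL, PES1 and RRS1) and left 5 lower.

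**Figure D4:**
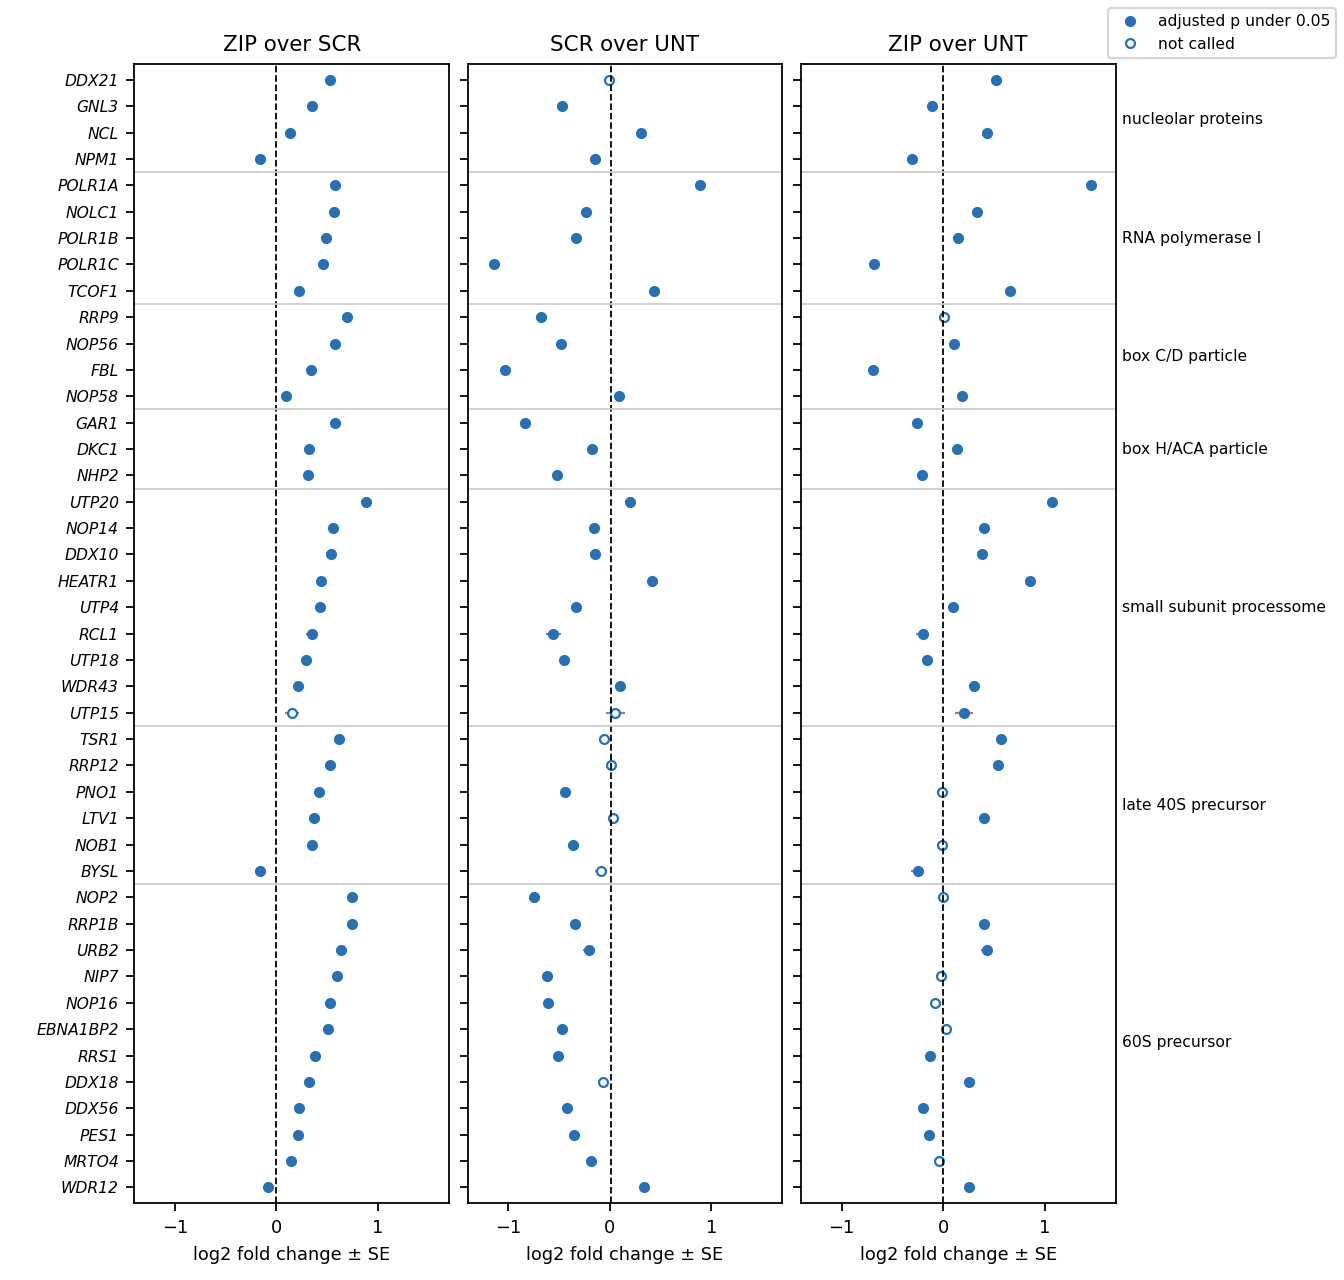
Log2 fold change ± SE (horizontal axes) of each of the 43 genes (rows, by role) in the 3 comparisons; filled points have an adjusted p under 0.05 (edgeR) and open points were not called. Nearly all points lie right of 0 in ZIP against SCR, most lie left of 0 in SCR against UNT, and ZIP against UNT spreads on both sides.

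Read over the 3 groups, the genes took several courses, counted here without a share over all genes. SCR against UNT and ZIP against SCR share the SCR libraries with opposite sign. A low SCR value therefore bears on both calls at once. A fall in SCR against UNT with a rise in ZIP against SCR was called in 27 genes. Of these, 8 were not called in ZIP against UNT (RRP9, NOB1, PNO1, NOP2, NOP16, MRTO4, NIP7 and EBNA1BP2), 10 were lower in ZIP than in UNT (FBL, POLR1C and GAR1 among them) and 9 were higher (RRP1B, NOLC1 and DKC1 among them). A further 7 genes were called higher in all 3 comparisons: NCL, POLR1A, TCOF1, NOP58, UTP20, WDR43 and HEATR1. NPM1 alone was called lower in all 3. DDX21, LTV1, TSR1, RRP12 and DDX18 were called higher in ZIP against both SCR and UNT and not called in SCR against UNT, where DDX21, LTV1 and RRP12 were called with plain library totals. The UNT value lay nearer to the ZIP mean in 23 genes and nearer to the SCR mean in 20, again without a share over all genes.

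Exon length moved with the comparisons that involve UNT. This was examined after the data were seen, in length classes of up to 4177 bases, up to 6922 bases and above. In SCR against UNT the median log2 fold change was -0.43 for the 20 short genes, -0.34 for the 14 of middle length and 0.31 for the 9 long ones. All protein-coding genes at or above the level of UTP15 (7166 genes) had medians of -0.23, -0.05 and 0.12 in the same classes. In ZIP against UNT the medians were -0.06, 0.12 and 0.54 for the genes described here and -0.19, 0.01 and 0.20 for all. In ZIP against SCR they were 0.35, 0.51 and 0.44, against 0.03, 0.05 and 0.09, so that the genes described here were above the others in every class. Spearman's rho between exon length and log2 fold change, across 43 genes that share the same 5 libraries, was 0.57 in SCR against UNT, 0.65 in ZIP against UNT and 0.17 in ZIP against SCR. For all 7166 genes it was 0.31, 0.44 and 0.07. The part of length in the changes of POLR1A, UTP20, HEATR1 and TCOF1, 4 of the 9 long genes, was not tested.

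**Figure D5:**
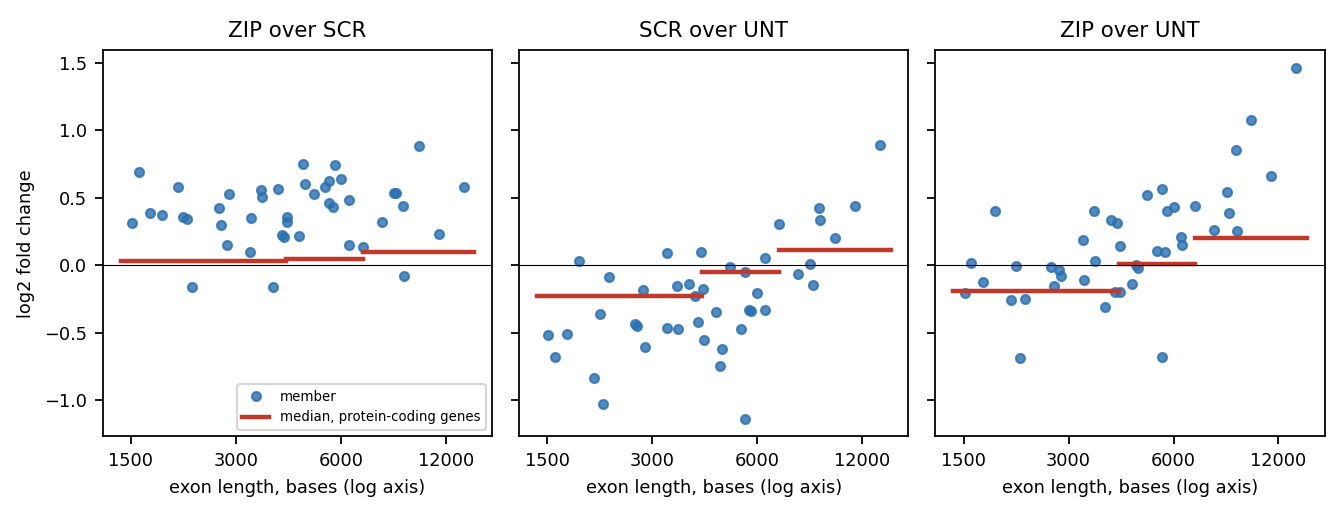
Log2 fold change (vertical axis) against annotated exon length in bases (horizontal log axis) for the 43 genes (points) in the 3 comparisons; red lines are the medians of protein-coding genes in 3 length classes. In SCR and ZIP against UNT the points climb with length from left to right, while in ZIP against SCR most stand above the red lines at all lengths.

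Some counts could include reads of other genes. The annotation lists 45 pseudogene copies of NPM1, of which 39 were counted; together they held at most 0.628% of the NPM1 count in a library. Copies of NOP56 held up to 5.79% and copies of DDX10 up to 1.37%. Adding the copies to their parent genes changed no call among the 43 in any of the 3 comparisons. An overlapping gene on the opposite strand held at least 10% of the gene's own count for 11 genes (GNL3, POLR1C, NHP2, NOP14, UTP4, UTP15, HEATR1, TSR1, NOP16, MRTO4 and NIP7). The counting is not stated to use strand, so the values of these 11 are uncertain where exons overlap. POLR1C overlaps YIPF3 and XPO5, whose counts reached 216% and 554% of its own.

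Guide RNA genes inside the introns and exons of these genes were barely counted. Of the 43 genes, 8 hold 26 annotated small nucleolar RNA genes, of which 19 were in the table and 13 had any count. Their counts summed to 71 in UNT, 43 and 62 in SCR, and 132 and 126 in ZIP. The ZIP sums were the highest and the SCR sums the lowest, at totals too small for a reading gene by gene. The host genes NCL, GNL3, NOP56, NOP58, DKC1, WDR43, POLR1C and TSR1 were all higher in ZIP than in SCR. That direction was called in 39 of the 43 genes.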

How the data were processed

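RNA of 5 HL60 libraries was measured by sequencing on an Illumina HiSeq; the labels name a small RNA library kit. The deposited table holds raw read counts per Ensembl gene that the authors made with Bowtie2 and featureCounts, per the submitters' processing notes, while the series' design text names TopHat 2, Cufflinks and HTSeq. Genome build, annotation and strand setting were not given in the sources used here. Listed genes were matched to Ensembl IDs through their current symbols. Other IDs were named first through GENCODE 29, which held 44305 of the 51055 IDs. The members and gene lists were chosen with earlier results of these data known.

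Low counts were removed by edgeR's filterByExpr, with 10 as its count and 15 as its total minimum, and TMM factors (0.956 to 1.03) set the scale. Genes were tested with edgeR 4.0.16 in R 4.3.3 by the quasi-likelihood test, with Benjamini-Hochberg adjustment over all genes tested and calls at 0.05. ZIP against SCR was fitted on 4 libraries and the comparisons with UNT on all 5, with 2 residual degrees of freedom each. SE is the absolute log2 fold change divided by the root of F. Replicates differed by a mean chi-square per gene of 2.65 (SCR) and 1.88 (ZIP), against 88.1 to 151 between groups. CPM used TMM-scaled totals. DESeq2 1.42.0, other scalings, no filter, a 1.5-fold minimum, a replicate block, other sets of libraries, summed pseudogene copies and each replicate left out were alternatives. Genes given in full were NCL, NPM1, FBL, DKC1 and POLR1A and, in each comparison, the 5 largest rises and falls among those called; of other ribosome biogenesis genes, the 3 largest of each in ZIP against SCR. Promoter and microRNA sequences are RefSeq's (GRCh38.p14); the window's start was the annotated gene start for 92.2% of genes with 1 window.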

Additional observations from a re-analysis of the deposited data

How the results depend on the processing

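The counts of genes called higher among the 43 stayed within 1.5 times their main value under every alternative except the 1.5-fold minimum. With that minimum, ZIP against SCR had 7 higher and 0 lower (all genes 1310 and 2435), SCR against UNT 1 and 7 (3202 and 2114), and ZIP against UNT 4 and 2 (2181 and 1813). With library totals the medians of the 43 were 0.37, -0.12 and 0.16 in ZIP against SCR, SCR against UNT and ZIP against UNT. The ZIP against UNT median was 0.11 with DESeq2's size factors and 0.11 with only the compared groups fitted, and 0.0894 to 0.13 with 1 replicate left out. Relative to genes of the same length class, an alternative chosen after seeing the data, the medians were 0.35 in ZIP against SCR and 0.15 in ZIP against UNT. DESeq2 called 1 of the 43 lower in ZIP against SCR, and leaving out 1 replicate gave 1 to 3. In ZIP against UNT DESeq2 called 5 of the 43 and 2811 of all genes lower.

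Among the 43, direction turned under no alternative in ZIP against SCR, and in the other comparisons it turned in genes that had not been called. In SCR against UNT with library totals it turned for DDX21, which was then called, and for DDX18, BYSL (0.0235) and TSR1 (0.0564), and with 1 replicate left out for UTP15 and RRP12. In ZIP against UNT it turned for NOB1, PNO1, MRTO4 and NIP7 with library totals, and for NOB1 and MRTO4 without ZIP 2. In that comparison NOP2 was at 0.0059 with DESeq2's size factors, 0.0491 with library totals, 0.0007 with DESeq2, 0.0048 with only the compared groups fitted and -0.0179 to 0.0222 with 1 replicate left out, and RRP9 ranged from -0.0034 to 0.0366 with 1 replicate left out. The cause was not tested. With the replicate number as a block, ZIP against SCR gave 39 higher and 3 lower among the 43 and 4790 and 4919 over all genes, and no call among the 43 changed. Same-numbered libraries deviated together with a correlation of 0.05 over 11360 genes, so the numbers were not taken as pairs. Depth limited UTP15 most, whose lowest count was 441.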
